A study of Mus musculus with 47 samples.

Results

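Respiratory complex I is the enzyme by which most electrons enter the mitochondrial respiratory chain. The genes described here are its nuclear-encoded components as the symbols name them. Every gene whose symbol begins with Nduf was taken from the deposited tables, which gave 45 of 24391 genes. The 47 libraries hold RNA of brown fat, white fat and the gastrocnemius, a calf muscle, from mice of the C57Bl6 strain. The study asked how the tissues of tumour-bearing mice differ when the mice receive 3P10, an antibody against GFRAL, or a control IgG1. GFRAL is the hindbrain receptor for the stress hormone GDF15.

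Of the 3 groups, NTB mice carried no tumour, and their labels name no antibody. The IgG1 and 3P10 mice both carried tumours of HT1080, a human fibrosarcoma line, and received antibody at 3 mg/kg each week from day 0. Tissue was taken on day 21. The labels state neither the immune status of the mice that carried the human cells nor their age. The groups had 6, 5 and 6 libraries in brown fat, in the order NTB, IgG1, 3P10, and 5 each in the other tissues. The labels speak only of separate samples, so p-values measure the spread between these samples, part of which may be technical.

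As background, complex I is an L-shaped assembly. Its N module, at the tip of the arm that reaches into the matrix, takes electrons from NADH through a flavin and a chain of iron-sulfur clusters. The Q module below it passes them to ubiquinone, and the membrane arm pumps protons. Core subunits carry the chemistry, accessory subunits surround them, and assembly factors help build the enzyme without staying in it. Brown fat is rich in mitochondria because its fat cells burn fuel for heat. The membrane arm's core subunits are encoded in mitochondrial DNA and were not analysed here. Of the 45 genes, 10 were grouped in the N module, 5 in the Q module, 10 in the proximal and 11 in the distal membrane arm, 7 as assembly factors and 2 as the Ndufa4 family. Ndufa4, despite its name, is known as a subunit of complex IV, and Ndufa4l2 is its hypoxia-induced relative.

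Promoter sequences from RefSeq (GRCm38.p6, 250 bases before to 50 after the start site) matched 39 of the 45 genes, with 41 promoters. Short motifs of 4 factors or factor families tied to mitochondrial genes were searched on both strands, with no overlap between their letters. The NRF1 core GCGCATGC was in 12.2% of the Nduf promoters and in 2.71% of all 32851 promoters. The YY1 core AAGATGGC was in 17.1% against 2.75%. The GABP or ETS core CCGGAAGT was in 2.4% against 3.89%, and the ERR motif TCAAGGTCA in 0 against 0.42%. The 7 YY1 matches all lay after the start site, read in the gene's own direction, between 22 and 38 bases into the transcript, and all 7 held the annotated start codon. Over all promoters, 30.1% of 927 matches lay after the start site in the gene's direction. These letters around a start codon are known as the TISU element of transcripts with short leaders. A match is a description of the letters and not of binding. The 7 stretches are shown because they share this placement, with the motif in capitals, which holds the ATG.

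Ndufa3 (chr7:3617377-3617406, + strand): cttgtcgccgccaagaacAAGATGGCcggg
Ndufa9 (chr6:126849104-126849133, - strand): cgtgaggcattgtgggagAAGATGGCggcc
Ndufb8 (chr19:44555393-44555422, - strand): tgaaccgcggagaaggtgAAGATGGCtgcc
Ndufc1 (chr3:51408922-51408951, - strand): aggcggagcctgcggaacAAGATGGCgccg
Ndufs4 (chr13:114388048-114388077, - strand): ctggcgtttgcctacaggAAGATGGCggcg
Ndufs6 (chr13:73328438-73328467, - strand): gggtcaagggtcaccggcAAGATGGCggcg
Ndufs7 (chr10:80249455-80249484, + strand): tgtctgaaggccgaggccAAGATGGCggcg

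The NRF1 core was in the promoters of Ndufa6, Ndufa8, Ndufa11, Ndufaf4 and Ndufaf5. The last 80 bases before the start sites of Ndufa8 and Ndufa11 are shown as examples, with the matching letters of either strand in capitals.

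Ndufa8 (chr2:36049339-36049418, - strand): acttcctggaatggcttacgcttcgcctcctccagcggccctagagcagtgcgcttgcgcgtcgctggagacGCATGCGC
Ndufa11 (chr17:56717682-56717761, + strand): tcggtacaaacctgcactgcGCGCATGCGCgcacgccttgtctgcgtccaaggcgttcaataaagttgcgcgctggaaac

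Brown fat libraries were the shallowest, with totals of 798886 to 2459761 counts. White fat libraries held 18621423 to 80661547 counts and muscle libraries 24759436 to 33502175. Levels are given as CPM, counts scaled by library size and composition. Brown fat reads came from transcript 3′ ends in a kit and table of their own, so its levels are not set beside those of the other tissues. The labels fit the marker genes: skeletal muscle markers summed to 220049 to 450072 CPM in muscle and 1137 to 4625 in white fat, and fat cell markers to 48118 to 69379 CPM in white fat and 949 to 2521 in muscle. After a filter on low counts, 43 Nduf genes were tested in brown fat and 44 in each of white fat and muscle. Ndufs5 had 0 reads in all 47 libraries, which allows up to 3.68 CPM in the shallowest brown fat library and up to 0.161 CPM in white fat, for counting error only. Ndufa4l2 was left out in brown fat, at 0 to 8.19 CPM. A further limit is that 5 members share at least 15% of their 100-base stretches with another gene's transcripts: Ndufb4, Ndufs3, Ndufs5, Ndufa12 and Ndufb9. Values of these 5 are uncertain where the counting could split reads among copies. In bulk tissue, fewer cells of a type and less RNA per cell cannot be told apart.

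In brown fat, the Nduf genes as a whole were close between NTB and IgG1 mice, and 10 of them differed between 3P10 and IgG1. Between IgG1 and NTB, 0 of 43 passed an adjusted p of 0.05 in edgeR's quasi-likelihood test, where 2.97% of all 8711 genes tested did. At an unadjusted p under 0.05, 3 members passed, which is 6.98% of them against 17.7% of all genes. DESeq2 called 0, where it called 3.82% of all genes. Their median log2 fold change was 0.03, beside -0.01 over all genes, with 24 above and 19 below 0. Without NTB replicate 4, 1 member was called.

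Between 3P10 and IgG1, 8 of the 43 rose with 3P10 and 2 fell, a share of 23.3% where 11.6% of all genes were called. The median log2 fold change was 0.10, beside -0.01 over all genes, and 32 of 43 were positive. By role, 3 rose and 1 fell among 11 distal membrane arm genes, 2 rose among 5 Q module genes, 2 rose among 7 assembly factors, and 1 rose and 1 fell among 10 N module genes. None of the 9 proximal membrane arm genes tested was called at this threshold, with log2 fold changes from -0.09 to 0.27, and neither was Ndufa4. The count was 4 without IgG1 replicate 2 or without 3P10 replicate 3, and 5 without IgG1 replicate 3. Ndufab1, Ndufb5, Ndufa2 and Ndufb7 kept their calls whichever of the 17 libraries was left out.

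**Figure D1:**
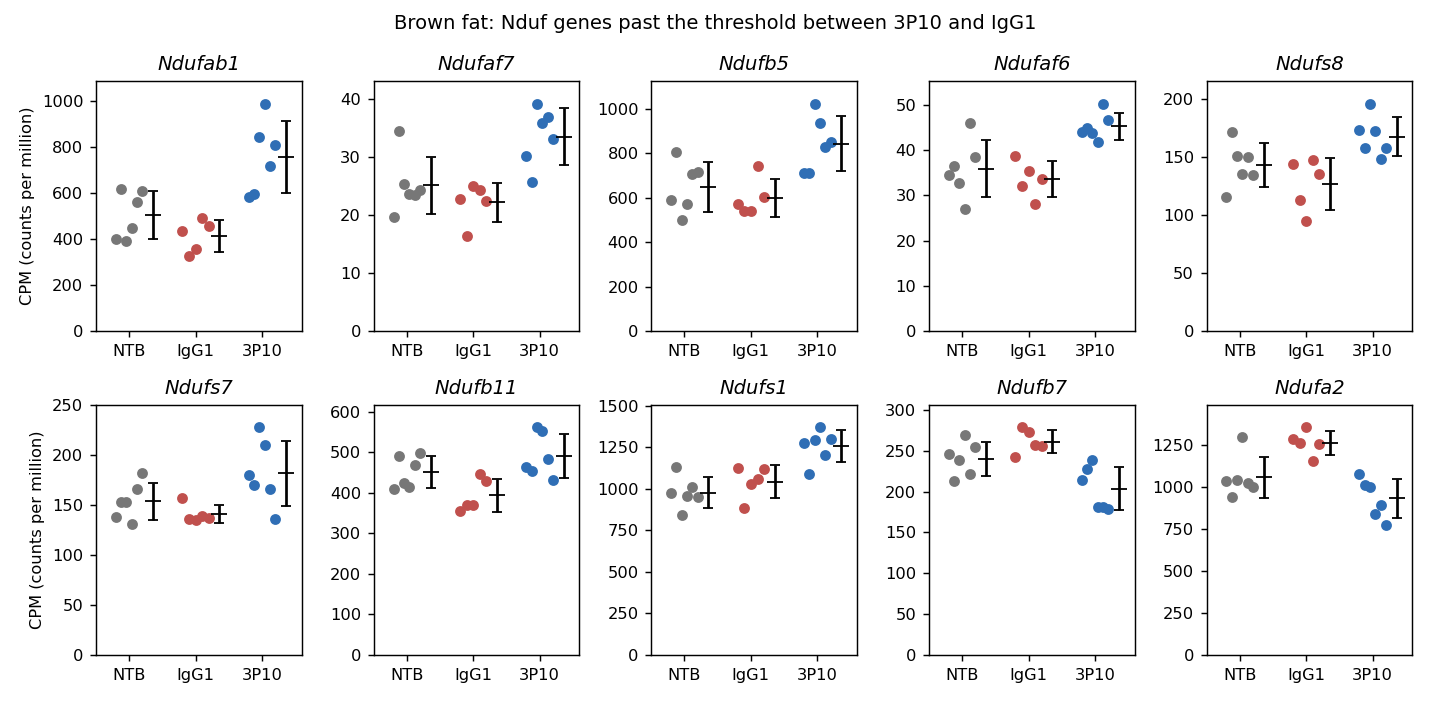
CPM (y axes, from 0) in each brown fat library (points) of the 10 Nduf genes past the threshold between 3P10 and IgG1, in NTB (n = 6), IgG1 (n = 5) and 3P10 (n = 6), with the mean and SD as black bars. Ndufab1 lies at 585 to 988 with 3P10 and 325 to 493 with IgG1, and Ndufa2 at 773 to 1078 and 1157 to 1354.

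Ndufab1, the mitochondrial acyl carrier protein that sits in the membrane arm and also serves fatty acid and iron-sulfur cluster synthesis, had the largest fold change of the 43. Its CPM with IgG1 was 436, 325, 359, 493 and 457, and with 3P10 it ran from 585 through a median of 764 to 988. NTB mice had 391 to 618, with a median of 505. Every 3P10 library lay above every IgG1 library, while NTB and 3P10 overlapped between 585 and 618. The log2 fold change of 3P10 against IgG1 was 0.87 (SE 0.15, adjusted p = 0.00097, edgeR's quasi-likelihood test). Against NTB it was 0.58 (SE 0.14, adjusted p = 0.0219), a call lost without 3P10 replicate 3 or 4 or NTB replicate 1 or 4, where the range was 0.49 to 0.65 over all libraries left out in turn. For IgG1 against NTB it was -0.29 (SE 0.15, adjusted p = 0.333).

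Ndufb5 and Ndufb11, accessory subunits of the distal arm, also rose with 3P10. Ndufb5 had 570, 541, 538, 740 and 602 CPM with IgG1 and 710 to 1022 with 3P10 (median 839). The groups overlapped through IgG1 replicate 4 at 740. Its rise was 0.49 on the log2 scale (SE 0.12, adjusted p = 0.0126). Ndufb11 had 356, 370, 370, 447 and 429 CPM with IgG1 and 432 to 561 with 3P10 (median 474), again with overlap at one library, and a change of 0.32 on the log2 scale (SE 0.093, adjusted p = 0.0291). The Ndufb11 call was lost without IgG1 replicate 1, 2 or 3 or 3P10 replicate 3 or 4, with folds of 0.28 to 0.37. Ndufb7, an accessory subunit on the intermembrane side, went the other way. It had 242, 279, 272, 258 and 256 CPM with IgG1 and 179 to 239 with 3P10 (median 198), with no overlap, and a change of -0.35 on the log2 scale (SE 0.093, adjusted p = 0.0169).

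In the Q module, Ndufs7 and Ndufs8 rose, the core subunits that hold the last iron-sulfur clusters before ubiquinone. Ndufs8 had 144, 113, 94.6, 147 and 135 CPM with IgG1 and 148 to 196 with 3P10 (median 165). The groups did not overlap, though the nearest libraries stood at 147 and 148. Its log2 fold change was 0.41 (SE 0.12, adjusted p = 0.0271), a call lost without IgG1 replicate 2 or 3 or 3P10 replicate 3 (folds 0.32 to 0.46 over all libraries left out). Ndufs7 had 157, 136, 135, 139 and 137 CPM with IgG1 and 136 to 227 with 3P10 (median 175), with overlap at the low end of 3P10. Its log2 fold change was 0.38 (SE 0.12, adjusted p = 0.0376), a call lost without IgG1 replicate 2, 3, 4 or 5 or 3P10 replicate 3 or 4 (folds 0.30 to 0.44).

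In the N module, Ndufs1, the core subunit that carries most of that module's iron-sulfur clusters, rose and Ndufa2, an accessory subunit, fell. Ndufs1 had 1126, 883, 1030, 1057 and 1121 CPM with IgG1 and 1090 to 1369 with 3P10 (median 1287), with overlap around 1100. Its rise of 0.27 on the log2 scale (SE 0.087, adjusted p = 0.0466) was lost in 12 of the 17 fits that left a library out, with folds of 0.22 to 0.30, and held without IgG1 replicate 1, 3P10 replicate 2 or NTB replicate 2, 3 or 6. Against NTB, at 839 to 1129 CPM (median 965), Ndufs1 was 0.36 higher with 3P10 (SE 0.083, adjusted p = 0.0164), and that call held in all 17. Ndufa2 had 1286, 1264, 1354, 1157 and 1257 CPM with IgG1 and 773 to 1078 with 3P10 (median 944), with no overlap. Its fold change was -0.44 on the log2 scale (SE 0.094, adjusted p = 0.00453). NTB lay between, at 943 to 1300 CPM, and there 3P10 gave -0.18 (SE 0.090, adjusted p = 0.240) and IgG1 0.26 (SE 0.094, adjusted p = 0.140).

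The assembly factors Ndufaf7 and Ndufaf6 rose. Ndufaf7, a methyltransferase that acts during assembly, had 22.7, 16.5, 25.1, 24.4 and 22.4 CPM with IgG1 and 25.7 to 39.2 with 3P10 (median 34.5). No library overlapped, and the log2 fold change was 0.60 (SE 0.16, adjusted p = 0.0182), lost without IgG1 replicate 2 or 3P10 replicate 3 (folds 0.51 to 0.66). Ndufaf6, a factor of early assembly, had 38.6, 32.1, 35.3, 28.02 and 33.6 CPM with IgG1 and 41.8 to 50.2 with 3P10 (median 44.4). These groups did not overlap either, and the log2 fold change was 0.43 (SE 0.13, adjusted p = 0.0353), lost in 8 of 17 fits with a library left out (IgG1 replicates 2 to 5 and 3P10 replicates 2, 3, 5 and 6, folds 0.37 to 0.49).

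Between 3P10 and NTB, which share the 3P10 libraries with the comparison above, 5 of 43 Nduf genes rose and 0 fell, 11.6% of them where 5.75% of all genes were called. The 5 were Ndufs1 and Ndufab1, given above, and Ndufc2, Ndufs3 and Ndufb6. The median log2 fold change was 0.14, with 31 of 43 positive. Ndufc2, an accessory subunit of the proximal arm, had 404 to 530 CPM in NTB (median 460) and 540 to 604 with 3P10 (median 584). Those groups did not overlap, and the log2 fold change was 0.30 (SE 0.077, adjusted p = 0.0282). Ndufb6, of the distal arm, had 358 to 588 CPM in NTB and 487 to 641 with 3P10 (0.40, SE 0.11, adjusted p = 0.0386). Ndufs3, a Q module core subunit with shared stretches as above, had 47.5 to 76.1 and 63.4 to 106 CPM (0.50, SE 0.13, adjusted p = 0.0346). Both of the last 2 overlapped between groups. With one library left out, the count was 1 for 3P10 replicate 3 or 4 or NTB replicate 1 or 4, 2 for 3P10 replicate 6 or NTB replicate 3, and 3 for 3P10 replicate 5. It was 8 for 3P10 replicate 1 or IgG1 replicate 2, and 9 for NTB replicate 2.

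Summed over the 45 genes, brown fat CPM was 26924 ± 1996 (SD, n = 6) in NTB, 26871 ± 1281 (n = 5) with IgG1 and 29059 ± 1430 (n = 6) with 3P10, and the groups overlapped. Cell type markers moved beside these values. The summed level of 7 thermogenic fat cell markers was 5767 to 6254 CPM with IgG1, 6257 to 8029 in NTB and 7459 to 10355 with 3P10. Ucp1 alone had 2794 to 3220 CPM with IgG1 and 3560 to 5749 with 3P10. Of the 6 tested between 3P10 and IgG1, Cidea, Otop1 and Ucp1 rose and Slc27a2 fell. Their median log2 fold change was 0.05. The 14 skeletal muscle markers ran from 848 to 3118 CPM in NTB, 174 to 2342 with IgG1 and 2.49 to 2445 with 3P10, and with their level as a term of the fit the same 10 genes were called between 3P10 and IgG1. Endothelial markers (5 genes) ran from 662 to 959 CPM in NTB, 425 to 961 with IgG1 and 470 to 679 with 3P10, and Pecam1 among them fell by 0.52 with 3P10 against IgG1 (adjusted p = 0.00627). Fibroblast markers (5 genes) ran from 416 to 620, 387 to 638 and 378 to 505 CPM. Dcn was their only call between 3P10 and IgG1 and fell by 0.59 (adjusted p = 0.000797). The median log2 fold change of the 5 was 0.28, in the other direction. Short transcripts (under 1000 bases) relative to long ones (over 3000 bases) stood at log2 differences of -0.13 to 0.04 in NTB, -0.11 to 0.09 with IgG1 and -0.00104 to 0.24 with 3P10. The highest of these was 3P10 replicate 3, without which 4 members were called. That library was also the deepest in brown fat, at 2459761 counts, where the next deepest, 3P10 replicate 1, held 1392363. Without IgG1 replicate 2, which stood at -0.11, 4 members were called as well. The part of the thermogenic, endothelial and fibroblast levels, of transcript length and of depth in the result was not tested. Library numbers in brown fat follow the groups one after another, so an effect of that order and of the group cannot be told apart.

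**Figure D2:**
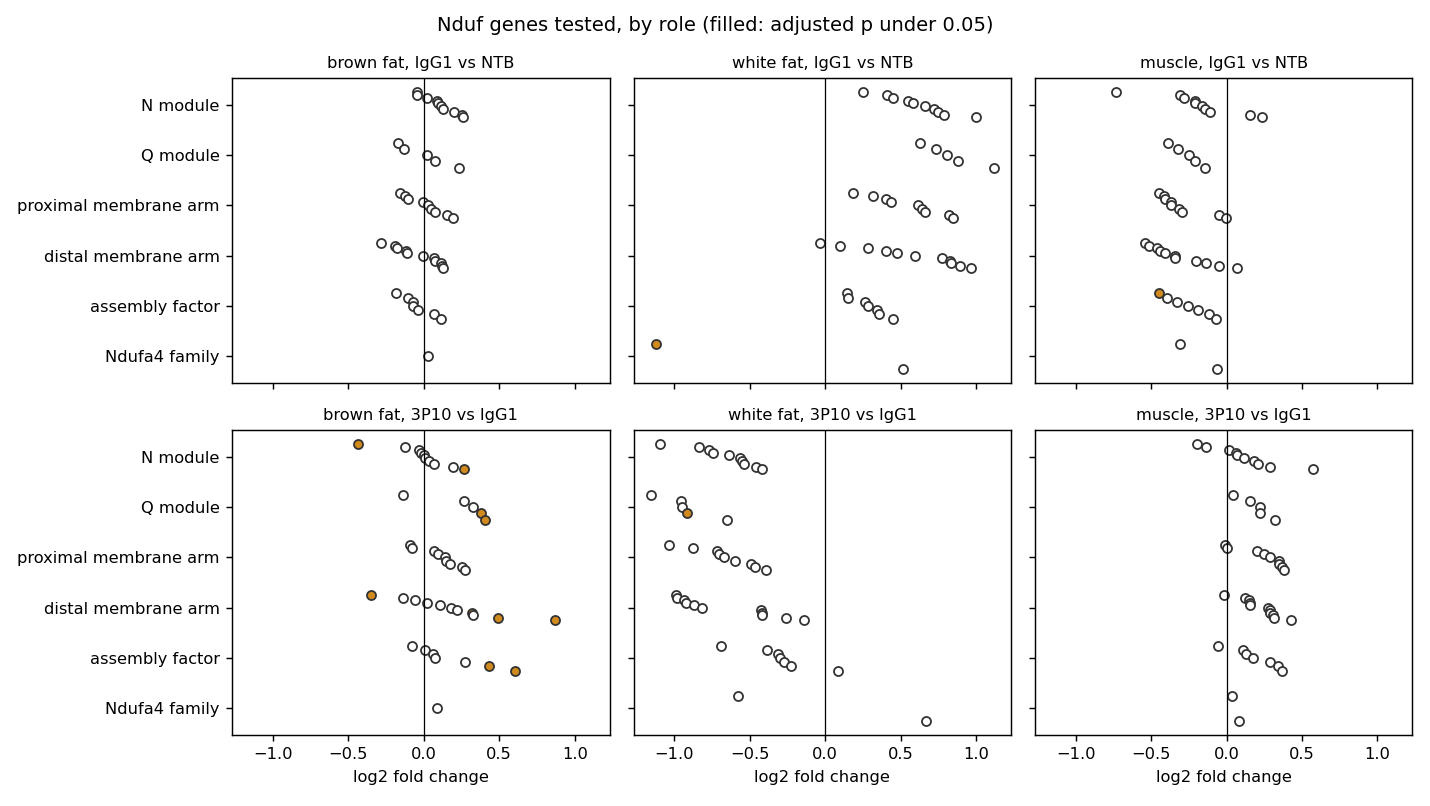
Log2 fold change (x axes) of each Nduf gene tested (points), by role, for IgG1 against NTB (top) and 3P10 against IgG1 (bottom) in brown fat, white fat and muscle; filled points passed an adjusted p of 0.05. In white fat 42 of 44 genes lie above 0 in the upper panel and 42 below 0 in the lower, with 1 call in each.

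Genes of the other respiratory complexes stood beside the Nduf genes in brown fat as follows for 3P10 against IgG1. In this comparison 11.6% of all genes were called, and small counts are not read as particular to a list. Among 11 further complex I genes, mostly assembly factors, 2 rose and 0 fell. They were Tmem70, which helps assemble complexes I and V (log2 fold change 0.54, SE 0.12, adjusted p = 0.00579), and Tmem126a, an assembly factor of the membrane arm (0.46, SE 0.12, adjusted p = 0.0155). Complex IV had 7 of 13 risen and 0 fallen, with a median log2 fold change of 0.35, among them the subunits Cox8a (1.09, SE 0.17, adjusted p = 0.000487) and Cox7c (0.81, adjusted p = 0.00922). Complex III had 5 risen and 1 fallen of 9 and a median of 0.24. The Rieske protein Uqcrfs1 rose by 0.86 (adjusted p = 0.00469), while the core protein Uqcrc1 fell by 0.29 (adjusted p = 0.0418). Uqcrc1 lost its call without any 1 IgG1 library, without 3P10 replicate 2, 4, 5 or 6 and without NTB replicate 5, with folds of -0.34 to -0.22. Complex II had 2 of 4 risen, with Sdha at 0.27 (adjusted p = 0.0241), lost without IgG1 replicate 2 or 3 or 3P10 replicate 4. Complex V, the ATP synthase, had 3 risen and 2 fallen of 13 and a median of 0.03, with Atp5d at -0.35 (adjusted p = 0.0132). Of 10 regulators of mitochondrial genes, 1 rose: Esrrg, an orphan nuclear receptor of oxidative metabolism, at 0.97 (adjusted p = 0.00131). For 3P10 against NTB, where 5.75% of all genes were called, 1 of the 11 further complex I genes rose (Tmem126a). So did 1 of 4 in complex II, 3 of 9 in complex III and 4 of 13 in complex IV. Among the regulators Esrrg rose, and complex V had 1 risen and 1 fallen. For IgG1 against NTB, where 2.97% of all genes were called, the single call over these lists was a rise of Atp5l in complex V. No test compared one complex with another.

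In white fat, most Nduf genes stood higher with IgG1 than in NTB and lower with 3P10 than with IgG1, but 1 member passed the test in each comparison. Against NTB, IgG1 gave a median log2 fold change of 0.57, beside -0.01 over all genes, with 42 of 44 above 0. The share past the threshold was 1 of 44, where 8.64% of all 14402 genes were called. At an unadjusted p under 0.05 it was 19 of 44, or 43.2%, against 29.1% of all genes. For 3P10 against IgG1 the median was -0.61, beside 0.01 over all genes, with 42 of 44 below 0, again 1 called where 7.42% of all genes were, and 22 (50%) at an unadjusted p under 0.05 against 28.1%. DESeq2 called 11 of 44 for IgG1 against NTB, where it called 17.7% of all genes, and 15 for 3P10 against IgG1, where it called 15.8%. These comparisons share the IgG1 libraries. Between 3P10 and NTB, edgeR called 0 of 44, where 0% of all genes were called. There 0 members had an unadjusted p under 0.05, DESeq2 called 0 (0.132% of all genes), and the median was -0.06.

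Replicates 2 and 4 of the 5 IgG1 libraries had the highest Nduf levels. Replicate 4 was also the deepest white fat library, at 80661547 counts, where the next deepest, NTB replicate 3, held 34445578. Its sample index in the column header lies far from those of the other white fat libraries. Summed over the 45 genes, IgG1 CPM was 6061, 13347, 4637, 15762 and 9321 in replicates 1 to 5, while NTB ran from 5051 to 7271 and 3P10 from 4428 to 7347. Replicates 1 and 3 lay within the range of the other groups, and replicates 2, 4 and 5 above it. Without replicates 2 and 4 the median log2 fold changes were 0.05 (24 positive, 20 negative) and -0.12 (15 positive, 29 negative), and 0 members were called in either comparison. Leaving out only IgG1 replicate 3, one of the low libraries, gave 21 and 26 calls, where 16.2% and 15.9% of all genes were called. Leaving out only replicate 1 gave 11 and 15, where the shares were 15.2% and 12.5%. The count between 3P10 and IgG1 was 3 without 3P10 replicate 5. For that fit the share of all genes called is not given here, so the count is not read as particular to the Nduf genes.

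**Figure D3:**
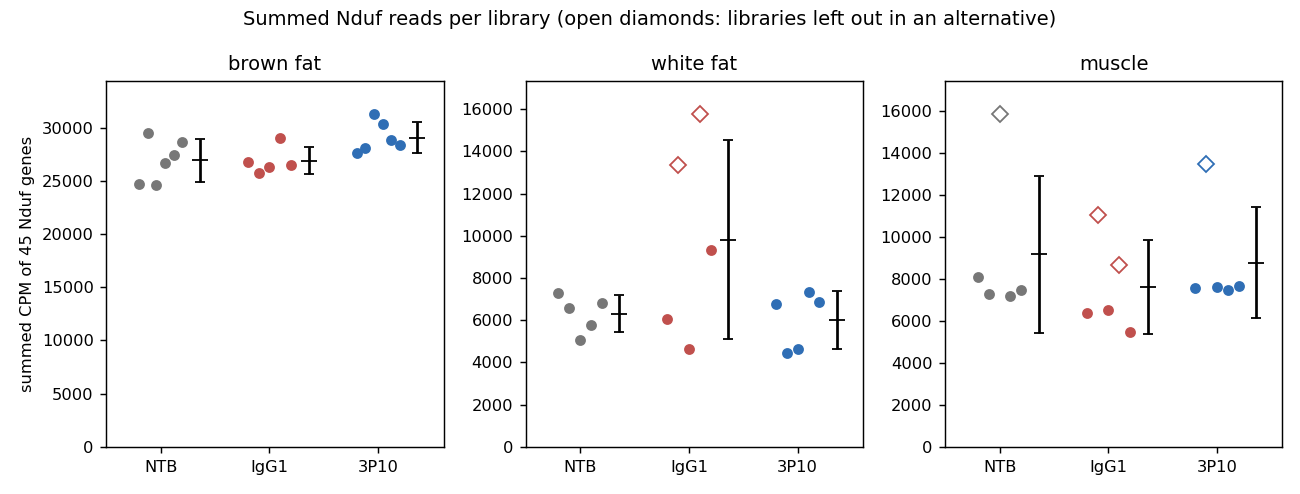
Summed CPM of the 45 Nduf genes (y axes, from 0) in each library (points) by group in brown fat, white fat and muscle, with group mean and SD as black bars and open diamonds for the libraries left out in an alternative fit. In white fat IgG1 replicates 2 and 4 stand at 13347 and 15762, and in muscle NTB replicate 3 at 15841.

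The same libraries stood apart in marker genes. The 7 thermogenic fat cell markers, Ucp1 among them, summed to 156, 4860, 119, 4949 and 1374 CPM in IgG1 replicates 1 to 5 and to 169 to 1064 CPM over the NTB and 3P10 libraries. Replicates 2, 4 and 5 were thus the highest of all white fat libraries for these markers as well as for the Nduf genes. Fibroblast markers were 553 to 1487 CPM with IgG1, 2191 to 3343 in NTB and 1290 to 2533 with 3P10. Epithelial markers reached 181 and 818 CPM in IgG1 replicates 2 and 4 and 1.68 to 27.02 in the other 13 libraries. Among them, Krt14 had 0.80 CPM in replicate 2 and 283 in replicate 4, where the NTB libraries had up to 0.82. In the relative level of short (under 1000 bases) against long (over 3000 bases) transcripts, these replicates had log2 differences of 0.20 and 0.34, and the other 13 white fat libraries -0.32 to 0.23. Their library numbers, 14 and 23, are those of the muscle libraries IgG1 replicates 2 and 4, which stood apart in muscle. Muscle libraries numbered 15 and 16 stood apart too. The white fat libraries with those numbers, 3P10 replicate 2 and NTB replicate 3, had the lowest Nduf sums of their groups, at 4428 and 5051 CPM. The part of the marked cell types, of transcript length and of depth in the Nduf levels was not tested.

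**Figure D4:**
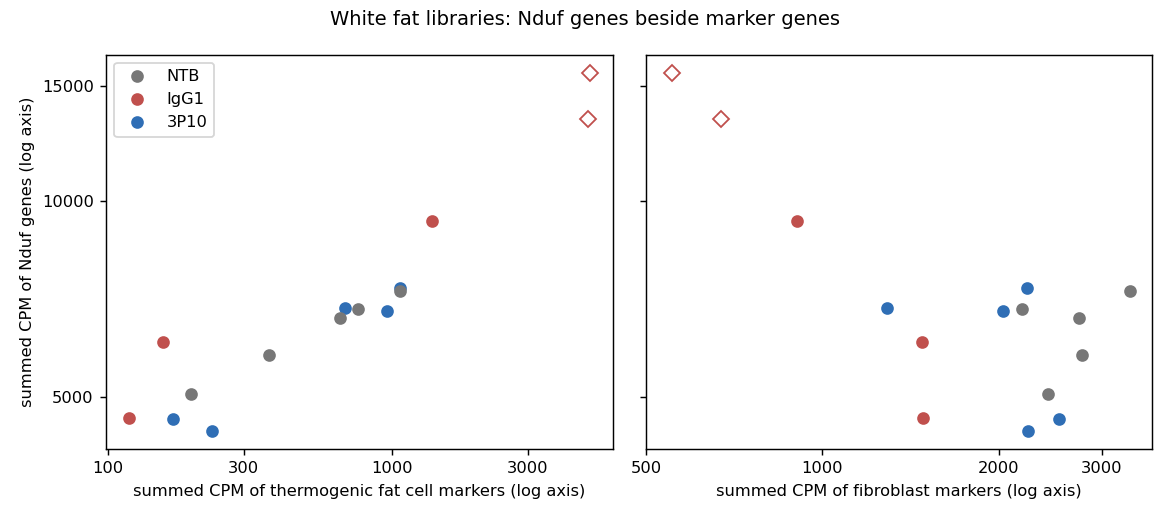
Summed CPM of the Nduf genes (y axis, log scale) against the summed CPM of thermogenic fat cell markers (left) and fibroblast markers (right; x axes, log scale) in the 15 white fat libraries, coloured by group, with open diamonds for IgG1 replicates 2 and 4. Those replicates have the 2 highest Nduf sums and thermogenic sums of 4860 and 4949.

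Ndufv1, the N module core subunit that binds NADH and the flavin, was chosen after its values were seen to show the pattern over the libraries. It had 391, 376, 285, 313 and 413 CPM in NTB, 361, 1035, 305, 1216 and 643 with IgG1, and 378, 226, 238, 397 and 427 with 3P10. The IgG1 group overlapped both others, with replicates 2, 4 and 5 above them. On the log2 scale its fold change was 1.001 for IgG1 against NTB (SE 0.33, adjusted p = 0.0681) and -1.09 for 3P10 against IgG1 (adjusted p = 0.0564), and 0.30 and -0.39 without IgG1 replicates 2 and 4. Ndufs8 had 83.2, 67.3, 48.3, 57.7 and 80.6 CPM in NTB and 65.0, 261, 50.0, 223 and 132 with IgG1, a log2 fold change of 1.12 (adjusted p = 0.0713). Assembly factors had the smaller folds, with a median of 0.28 over 7 genes for IgG1 against NTB, where the N module had 0.62 and the Q module 0.81; no test compared the roles.

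The gene called between 3P10 and IgG1 was Ndufs7. It had 154, 137, 101, 117 and 131 CPM in NTB, 133, 295, 117, 323 and 198 with IgG1 and 120, 73.3, 90.5, 142 and 139 with 3P10. IgG1 replicates 2, 4 and 5 were above every 3P10 library and the other 2 overlapped them. The log2 fold change was -0.92 (SE 0.27, adjusted p = 0.0494), and -0.41 (adjusted p = 0.398) without IgG1 replicates 2 and 4. The call was lost in 12 of 15 fits that left a library out, where the fold was -1.09 to -0.72, and held without IgG1 replicate 1 or 3 or 3P10 replicate 5.

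Ndufa4l2, which went against most other members, was the gene called between IgG1 and NTB. It had 8.92, 5.18, 4.85, 4.87 and 4.62 CPM in NTB and 3.03, 2.01, 2.78, 2.46 and 2.80 with IgG1, so every IgG1 library lay below every NTB library. With 3P10 it had 3.05, 6.24, 6.99, 2.25 and 2.21 CPM, which spread over both ranges. The log2 fold change of IgG1 against NTB was -1.12 (SE 0.33, adjusted p = 0.0458), and -0.99 (adjusted p = 0.211) without IgG1 replicates 2 and 4. The call was lost in 9 of 15 fits that left a library out (IgG1 replicate 2, 4 or 5, 3P10 replicate 1, or any NTB library), with folds of -1.18 to -0.88. Its relative Ndufa4 had 425 to 686 CPM in NTB and 368 to 1379 with IgG1, a log2 fold change of 0.52 (adjusted p = 0.273).

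Other respiratory genes of white fat shared this pattern of medians, with few calls. Of all genes, 8.64% were called for IgG1 against NTB and 7.42% for 3P10 against IgG1. For IgG1 against NTB and for 3P10 against IgG1, the medians were 0.78 and -0.80 in complex II, 0.76 and -0.75 in complex III, 0.50 and -0.64 in complex IV and 0.48 and -0.53 in complex V. Sdhb, the iron-sulfur subunit of complex II, was the single call among these 4 lists in each comparison, at 1.13 (adjusted p = 0.0440) and -1.16 (adjusted p = 0.0442). Those calls were lost in 10 and in 12 of 15 fits that left a library out, with folds of 0.88 to 1.34 and -1.37 to -0.92. Without IgG1 replicates 2 and 4 together, Sdhb stood at 0.40 and -0.43 (adjusted p = 0.392 and 0.389). Among the 11 further complex I genes, Foxred1, an assembly factor, fell by 0.67 with 3P10 against IgG1 (adjusted p = 0.0485), likewise lost in 12 of 15. For both Foxred1 and the second Sdhb call, those that held were without IgG1 replicate 1 or 3 or 3P10 replicate 5. Without IgG1 replicates 2 and 4 together, Foxred1 stood at -0.38 (adjusted p = 0.332).

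In muscle, 1 Nduf gene, Ndufaf7, fell with IgG1, and none was called with 3P10. IgG1 against NTB gave a median log2 fold change of -0.29, beside 0.01 over all genes, with 41 of 44 below 0. The share past the threshold was 1 of 44, where 5.6% of all 13283 genes were called, and 4 (9.09%) had an unadjusted p under 0.05 against 20.8% of all genes. DESeq2 called 2, where it called 9.98% of all genes. For 3P10 against IgG1 the median was 0.19, with 39 of 44 above 0. There edgeR called 0, where 0.211% of all genes were called, 3 members (6.82% against 10.8%) had an unadjusted p under 0.05, and DESeq2 called 2, where it called 2.14% of all genes. Between 3P10 and NTB edgeR called 0, where 0% of all genes were, with 0 members at an unadjusted p under 0.05, 0 called by DESeq2 (0.113% of all genes) and a median of -0.08.

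Ndufaf7 had 14.7, 13.7, 15.6, 12.9 and 11.9 CPM in NTB and 9.34, 10.5, 9.10, 10.97 and 10.5 with IgG1, with no overlap. With 3P10 it had 12.2, 14.1, 13.02, 11.5 and 14.2 CPM, all above the IgG1 libraries and within or near the NTB range. The log2 fold change of IgG1 against NTB was -0.45 (SE 0.11, adjusted p = 0.0286), and that of 3P10 against IgG1 was 0.37 (adjusted p = 0.206). The first was lost without IgG1 replicate 3 or 4 or NTB replicate 1 or 2, with folds of -0.51 to -0.41. Ndufv1 ran likewise, with 418, 403, 427, 383 and 399 CPM in NTB, 341, 341, 370, 283 and 307 with IgG1 and 356 to 429 with 3P10. NTB and IgG1 did not overlap, yet its log2 fold change of -0.31 (SE 0.11, adjusted p = 0.118) did not pass in edgeR. The 2 genes that DESeq2 called in muscle were Ndufaf7 and Ndufv1, in both comparisons. Its adjusted p for Ndufv1 was 0.00893 for IgG1 against NTB and 0.0376 for 3P10 against IgG1, with log2 fold changes of -0.31 and 0.30, and for Ndufaf7 in the second it was 0.0376 at 0.38.

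Of the muscle libraries, 4 stood apart from the other 11: IgG1 replicates 2 and 4, NTB replicate 3 and 3P10 replicate 2, numbered 14, 23, 16 and 15 in the column headers. Those are the highest library numbers in muscle, and their headers carry the last sample indices of that tissue. The 4 libraries lay at 51.7 to 57.6 on the first principal component, which held 42.3% of the variance, and the others at or below -2.71. In them, genes with transcripts under 1000 bases stood higher relative to genes with transcripts over 3000 bases, by a log2 difference of 0.57 to 1.08 from the gene means, where the others had -0.44 to -0.08. Lengths here are those of the longest annotated protein-coding transcript, which need not be the one expressed. By that measure, both shorter and longer Nduf genes differed there. The 22 members with transcripts under 1000 bases summed to 4388 to 7623 CPM in the 4 libraries and 2381 to 3347 in the others, and the other 23 to 4255 to 8218 and 3093 to 4761. The examples that follow were chosen after their values were seen. Ndufa1, a short transcript of 419 bases, had 51.2 to 109 CPM in the 4 libraries and 29.5 to 44.5 in the others. Ndufs1, of 2661 bases, had 146 to 200 CPM in them and 257 to 526 in the others. Ndufab1, with a longest annotated transcript of 3479 bases, was high in NTB replicate 3, at 207 CPM against 56.0 to 62.7 in the other NTB libraries. Whether that transcript is the one expressed was not tested, so Ndufab1 is not read as an exception to the length pattern. The summed Nduf CPM was 8643 to 15841 in the 4 and 5474 to 8108 in the rest. The cause was not tested.

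**Figure D5:**
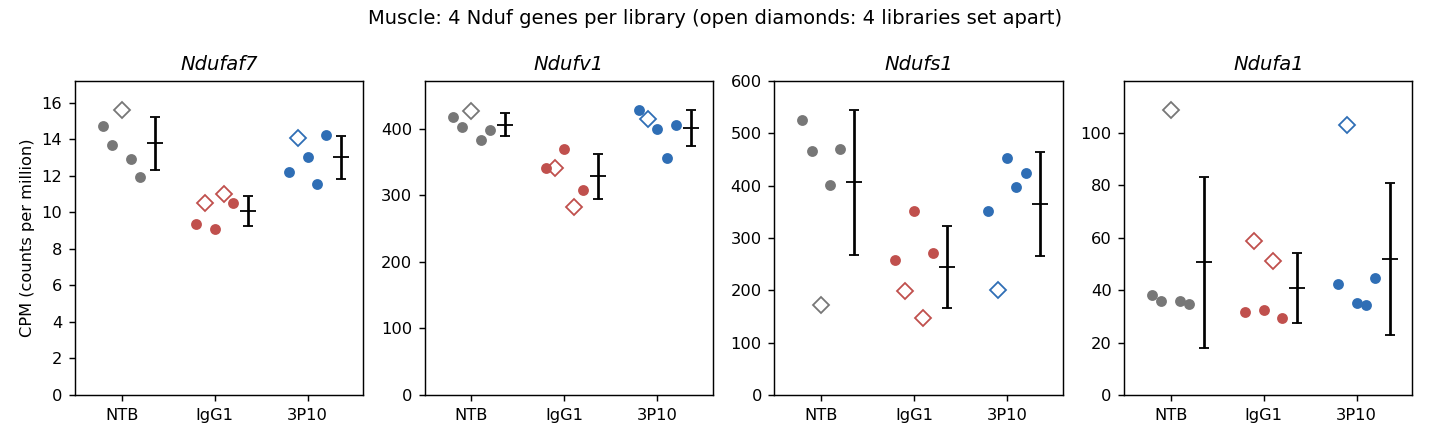
CPM (y axes, from 0) of Ndufaf7, Ndufv1, Ndufs1 and Ndufa1 in each muscle library (points) by group, with the mean and SD of 5 libraries as black bars and open diamonds for the 4 libraries set apart. The diamonds are low for Ndufs1 (146 to 200) and high for Ndufa1 (51.2 to 109), and at 10.5 to 15.6 for Ndufaf7.

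Without these 4 libraries, which leave 4 NTB, 3 IgG1 and 4 3P10, 10 Nduf genes fell with IgG1 against NTB and 0 rose, with a median of -0.25, where 6.52% of all 13434 genes tested in that fit were called. The 10 were Ndufs1 at -0.66 (adjusted p = 0.0144), Ndufs8 at -0.46 (adjusted p = 0.0145), Ndufa8, Ndufa9, Ndufb5, Ndufb9 and the assembly factors Ndufaf1, Ndufaf5, Ndufaf6 and Ndufaf7. With all 15 libraries, Ndufs1 had 526, 466, 172, 401 and 471 CPM in NTB and 257, 198, 353, 146 and 272 with IgG1, a change of -0.73 on the log2 scale (SE 0.29, adjusted p = 0.164). Among the 11 libraries, NTB held 401 to 526 and IgG1 257 to 353. Leaving out NTB replicate 3 alone moved the median to 0.04 and gave 2 calls. The share of all genes called in that fit is not given here, so the count is not read as particular to the Nduf genes. Among the other respiratory and regulator genes, the single muscle call between IgG1 and NTB was Perm1, a regulator of mitochondrial genes in muscle, at -0.70 (adjusted p = 0.0373). With all 15 libraries, 5.6% of all genes were called in that comparison. The Perm1 call was lost without IgG1 replicate 2, 4 or 5, 3P10 replicate 5 or NTB replicate 1, 2, 4 or 5, with folds of -0.81 to -0.59.

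Of the members called between 3P10 and IgG1 in brown fat, edgeR called Ndufs7 in white fat for the same comparison. In muscle it called Ndufaf7, but for IgG1 against NTB and not for 3P10 against IgG1. Ndufs7 went the other way in white fat than in brown fat for 3P10 against IgG1, at -0.92 against 0.38. DESeq2 also called Ndufs8 (adjusted p = 0.0178), Ndufb11 (adjusted p = 0.0194) and Ndufaf6 (adjusted p = 0.0271) in white fat for 3P10 against IgG1, all lower with 3P10, at -1.18, -0.94 and -0.71. In white fat, Ndufab1 had 69.4 to 139 CPM in NTB, 56.8 to 184 with IgG1 and 57.4 to 121 with 3P10, and Ndufs1 had 265 to 344, 220 to 638 and 198 to 375. For both genes the highest values were again IgG1 replicates 2 and 4. The log2 fold changes of 3P10 against IgG1 were -0.42 for Ndufab1 (adjusted p = 0.326) and -0.54 for Ndufs1 (adjusted p = 0.194). Ndufaf7 had 27.1 to 29.2 CPM in NTB, 20.2 to 40.2 with IgG1 and 19.9 to 31.6 with 3P10 (-0.27, adjusted p = 0.330). In muscle, Ndufab1 had 56.0 to 207 CPM in NTB, 30.4 to 91.7 with IgG1 and 52.3 to 136 with 3P10, with a log2 fold change of -0.44 for IgG1 against NTB (SE 0.43, adjusted p = 0.614) that was 0.13 without NTB replicate 3. Ndufs7 had 219 to 534, 179 to 395 and 206 to 460 CPM there. The highest values of Ndufs7 in each muscle group were in libraries set apart. Ndufa4 differed little against its spread in brown fat, with 740 to 1079 CPM in NTB, 805 to 993 with IgG1 and 862 to 1053 with 3P10 (0.09 for 3P10 against IgG1, SE 0.093, adjusted p = 0.600). In muscle it had 516 to 1400, 394 to 1138 and 499 to 1238 CPM, and Ndufa4l2 had 2.55 to 3.72, 1.55 to 3.87 and 1.87 to 3.07.

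The difference between white fat and muscle was tested in 1 fit of both tissues. The log2 fold change of IgG1 against NTB in white fat minus that in muscle had a median of 0.88 over the 44 Nduf genes, with 43 above 0, beside 0 called by edgeR, where 1.11% of all 14898 genes were called. At an unadjusted p under 0.05 it was 24 of 44 (54.5% against 15.5% of all genes), and DESeq2 called 7, where it called 3.73% of all genes. For 3P10 against IgG1 the median was -0.91, with 42 below 0, 0 called where 0.208% of all genes were, 21 (47.7% against 15%) at an unadjusted p under 0.05, and 5 by DESeq2, where it called 2.77%. White fat and muscle libraries of a group carry the same library numbers, which may mark the same mice, though the labels do not say so. With that number as a block, 0 Nduf genes were called in both comparisons, where 0.141% and 0.0336% of all genes were. Ndufv1 had differences of 1.34 (SE 0.36, adjusted p = 0.0596) and -1.42 (adjusted p = 0.0712). Both medians were smaller without the white fat and muscle libraries set apart, at 0.33 and -0.46, where Ndufv1 had 0.56 (adjusted p = 0.525). Leaving out white fat IgG1 replicate 3 alone gave 11 and 12 calls, and leaving out white fat IgG1 replicate 1 gave 9 and 6. The shares of all genes called in those fits are not given here, so these counts are not read as particular to the Nduf genes. Among the other respiratory and regulator genes, 3 passed for IgG1 against NTB and 0 for 3P10 against IgG1. The 3 were Sdhb at 1.54 (adjusted p = 0.0311), Cyc1, the cytochrome c1 of complex III, at 1.45 (adjusted p = 0.0451), and Perm1 at 2.20 (adjusted p = 0.0345). They lost their calls in 10, 19 and 13 of the 30 fits that left a library out, white fat IgG1 replicates 2 and 4 among them for each. Without the libraries set apart they stood at 0.79 (Sdhb), 0.66 (Cyc1) and 0.71 (Perm1), with adjusted p-values of 0.321, 0.4665 and 0.451.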

How the data were processed

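Per the labels' protocols, brown fat libraries were made with a QuantSeq 3′ kit with a molecular identifier module, and white fat and muscle libraries with the TailorMix Directional kit, all read as 100 bp single ends. The authors deposited raw counts per gene symbol in 2 tables. Per the submitters' processing notes, the tools were Trim Galore, STAR 2.6.0a, featureCounts 1.6.2 and edgeR 3.22.3, with build mm9. The annotation, the strand setting, the treatment of multimapping reads and any collapse by identifier are not given in the sources used here, and the last 2 could change levels of short genes and gene copies.

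Each tissue was fitted with edgeR 4.0.16 in R 4.3.3: quasi-likelihood test, 2-sided, 3 groups in 1 fit, TMM factors, filterByExpr (minimum count 10, minimum total 15), residual degrees of freedom 14 in brown fat and 12 in each of the others. White fat minus muscle was tested as an interaction in a joint fit (24 degrees of freedom). Calls rest on p-values adjusted by Benjamini-Hochberg across every gene of the tissue and comparison, with a threshold of 0.05. Adjusted p-values and standard errors are from these fits. CPM uses TMM-scaled library sizes. A count of 0 allows up to 3 counts. Groups came from the labels. No 2 libraries held identical counts. The members, the gene lists and the rule for named genes (up to 10 called members a comparison with the smallest adjusted p, those called more than once also in the other tissues, members at either end of the fold changes, and Ndufa4 and Ndufa4l2) were chosen with earlier results of these data known. Marker levels are sums of CPM over each list. Principal components used log2 CPM with a prior count of 2, and the transcript length differences used log2 CPM with a pseudocount of 0.5.

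Alternatives were edgeR's RLE factors, DESeq2 1.42.0, other filters, only the 2 groups compared, the replicate number as a block, the skeletal muscle marker level as a term, libraries set apart left out, and each library left out in turn. On simulated counts the 2-fold changes were recovered in 77.6% to 82.1% of cases in brown fat, 52.2% to 58.2% in white fat, 43.3% to 61.2% in muscle and 28.4% and 34.3% for the 2 tissue differences. At 1.5-fold the shares were 34.3% to 49.3%, 14.9% to 26.9%, 10.4% to 16.4% and 5.97%. Transcript lengths, start codons and shared stretches are from GENCODE vM21, and promoters from RefSeq GRCm38.p6. The length of a gene is that of its longest annotated protein-coding transcript. No coordinates of the mm9 alignment were used.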

Additional observations from a re-analysis of the deposited data

Results flagged for a closer look

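Of 57 values checked per group for a library far from the rest of its group, 5 were found, where chance gives about 1 in 20. In muscle, the summed CPM of the Nduf genes was 15841 in NTB replicate 3, beside 7170 to 8108 in the other 4 NTB libraries. With 3P10 it was 13495 in replicate 2, beside 7478 to 7666 in the other 4. Both belong to the 4 muscle libraries with relatively high short transcripts. In brown fat, Ndufa2 had 1299.9 CPM in NTB replicate 4, beside 943 to 1041 in the other 5 NTB libraries. Ndufs7 had 157 CPM in brown fat IgG1 replicate 1, beside 135 to 139 in the other 4. In white fat, Ndufa4l2 had 8.92 CPM in NTB replicate 1, beside 4.62 to 5.18 in the other 4, and without that library its fall with IgG1 was no longer called. The causes were not tested.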

How the results depend on the processing

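In brown fat the count of called Nduf genes between 3P10 and IgG1 (10) fell to 5 with the replicate block, where 712 of all 8711 genes were called. The block kept Ndufab1, Ndufaf7, Ndufb5, Ndufa2 and Ndufb7. The count between 3P10 and NTB (5) became 9 with DESeq2, where 587 of all 8711 genes were called. It became 3 with the block, where 340 were. With a library left out these counts ranged from 4 to 11 and from 1 to 9, and that between IgG1 and NTB from 0 to 1. The shares of all genes called in those brown fat fits are not given here. In white fat the single call of IgG1 against NTB became 11 with DESeq2, 0 without a filter and 0 without IgG1 replicates 2 and 4, and ranged from 0 to 21 with a library left out. With the block it was also 1 gene, but Ndufb11 in place of Ndufa4l2. The single call of 3P10 against IgG1 became 15 with DESeq2 and 0 without a filter, with only the 2 groups, with the block, and without IgG1 replicates 2 and 4, and ranged from 0 to 26. In muscle the single call of IgG1 against NTB became 2 with DESeq2, 10 without the 4 libraries set apart, and 0 without a filter, with only the 2 groups and with the block, and ranged from 0 to 2. For 3P10 against IgG1 in muscle DESeq2 called 2. The differences between white fat and muscle (0 and 0) became 7 and 5 with DESeq2 and ranged from 0 to 11 and from 0 to 12.

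Some directions turned. Without white fat IgG1 replicates 2 and 4, Ndufa4, Ndufab1 and Ndufaf7 had log2 fold changes of -0.0115, -0.16 and -0.15 for IgG1 against NTB, and Ndufab1 and Ndufaf7 0.0211 and 0.0245 for 3P10 against IgG1. In muscle, Ndufab1 ran from -0.60 to 0.13 for IgG1 against NTB with a library left out, the last without NTB replicate 3. The causes were not tested. Within a tissue, libraries of different groups were paired by replicate number. In brown fat, deviations from the group means correlated over 0.1 in 0 of 16 pairs with the same replicate number, against 14 of 80 with different ones. In white fat it was 8 of 15 against 16 of 60, and in muscle 9 of 15 against 29 of 60. These pairs join different groups, so they cannot show whether 2 libraries came from the same mouse. Between white fat and muscle, pairs of the same group and library number correlated over 0.1 in 6 of 15, against 27 of 210 other pairs. The labels name no shared animal, so the numbers were taken as names only in the main fits. Whether the library numbers mark shared mice is not known. RLE factors moved the median of all genes by at most 0.025. Depth limits brown fat genes below about 3.68 CPM, where a count of 0 can hide them.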
